A study of Mus musculus with 16 samples.

Results

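The comparison described here is between dermal fibroblasts of old mice after culture and dermal fibroblasts of old mice profiled directly after isolation, which the labels call in vivo. It used 8 of the 16 arrays of the study, chosen by their labels: 4 old cultured and 4 old in vivo. All cells came from female C57Bl/6 mice, an inbred laboratory strain, and old mice were 18 months of age. From every mouse 5000 fibroblasts were profiled straight away and 5000 after a period in culture, and RNA was amplified as cDNA over 23 cycles before hybridisation to an Affymetrix expression array. The other 8 arrays, 4 in vivo and 4 cultured, came from young mice of 2 months and were used only where the culture change of old cells was set against that of young cells. The labels used here do not give the medium, the length of culture or the passage. The in vivo cells had also been taken out of the skin before profiling, so a change set off by isolation and a change set off by culture cannot be told apart. Of 17097 genes with a probe set of their own, 14326 had at least 4 of the 8 old arrays above 3.87 (log2), the 25th percentile of all values, and were tested. The other 2771 were not tested.

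Dermal fibroblasts make and maintain the collagen-rich matrix of the skin and are largely quiescent there. On a rigid surface with growth factors, fibroblasts spread, bundle actin into stress fibres anchored at focal adhesions, enter the cell cycle and take on features of the myofibroblast, the contractile cell of healing wounds. Actin tension releases the coactivators of SRF and of TEAD factors to the nucleus, the E2F factors switch on DNA replication genes at the start of S phase, and complexes that bind the CHR element switch on the genes of mitosis. Taking tissue apart is itself known to induce immediate early genes.

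All values are log2 intensities, a change is the old cultured mean minus the old in vivo mean, given ± its standard error, and genes were called at a Benjamini-Hochberg adjusted p of 0.05 in limma. Correlations between arrays were 0.976 to 0.990 among old in vivo, 0.984 to 0.995 among old cultured and 0.842 to 0.878 between the conditions. Old in vivo replicate 1 stood somewhat apart. It lay at least 1 log2 unit above its 3 group mates for 74 genes and as far below them for 54 genes, against 0 to 19 genes above and 1 to 14 below for the other 3 in vivo arrays. Its higher genes included keratinocyte and interferon-induced genes. The counts for those lists and the changes of some of their genes are therefore given with and without it. Other single genes are given over all 8 arrays only. The value of the 3' minus that of the 5' control probe set for beta-actin, which reflects how whole the RNA was and how far amplification ran, was -0.46 ± 0.11 (SD, n = 4) in vivo and 0.10 ± 0.07 in culture, and the groups did not overlap. The same difference for Gapdh was -0.15 ± 0.02 in both. The part of these probe set differences in the gene results was not tested. As these are bulk samples, fewer cells of a type and less RNA per cell cannot be told apart. All 10 fibroblast markers were tested, and 8 fell and none rose in culture, with a summed level of 14.80 to 14.99 in vivo and 13.99 to 14.08 in culture. In vivo the matrix genes Col1a1, at 12.39, 12.48, 12.46 and 12.52, and Lum, at 11.40, 11.60, 11.86 and 11.73, were bright, whereas the receptor gene Pdgfra was dim, at 5.16, 4.94, 5.12 and 4.99. In culture Col1a1 stayed bright, at 12.25, 12.15, 12.23 and 12.22, as did the intermediate filament gene Vim, at 11.60, 11.48, 11.67 and 11.63, while Lum read 6.97, 6.84, 6.62 and 6.88 and Pdgfra 4.88, 4.79, 4.80 and 4.53.

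Culture moved most of the measured transcriptome. Of 14326 genes, 8940 (62.4%) passed the threshold. Of all genes tested, 4340 (30.3%) were higher and 4600 (32.1%) lower in culture, with a median change of -0.09. These shares are the background against which each gene group below is to be read. Changes of at least 2-fold were called for 1792 genes (12.5%) upwards and 1197 (8.36%) downwards, changes of at least 4-fold for 423 and 455, and changes of at least 16-fold for 51 and 54. The values of the 2 conditions did not overlap for 8421 genes. Of the calls, 48.5% were upwards, 33.8% after scaling each array to its 75th percentile, which shifted the median over all genes by -0.16, and 48.7% with cyclic loess. In 1437 of the called genes the lower group mean lay under 4.34, the 95th percentile of the control probe sets for bacterial RNA. The changes of these genes may be underestimates, which was not tested.

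The largest rise was that of Bcat1, the cytosolic enzyme that transfers the amino group of leucine, isoleucine and valine. Bcat1 read 4.22, 4.23, 4.64 and 4.84 in old in vivo replicates 1 to 4 and 10.75, 10.89, 10.69 and 10.86 in old cultured replicates 1 to 4. It was thus near the level of the control probe sets in every fresh sample and bright in every culture, a 79.6-fold difference (6.32 ± 0.14, adjusted p = 3.79e-09). Tpm2, a tropomyosin that wraps actin filaments, came next, with 5.25, 5.52, 4.98 and 5.24 in vivo and 11.58, 11.54, 11.47 and 11.51 in culture (77.6-fold, 6.28 ± 0.11, adjusted p = 2.61e-09). The 4 cultures lay within a narrow band far above the fresh cells. The other genes among the 15 with the largest rise were the smooth muscle actins Acta2 (5.75) and Actg2 (5.41), the actin-binding genes Cnn1 (5.28) and Actn1 (4.84), the integrin ligand Npnt (5.70), the wound matrix glycoprotein Tnc (5.62), the activin subunit Inhba (5.50), the matricellular gene Ccn2 (5.01), the chromatin protein Hmga2 (4.95), the nucleotide reductase subunit Rrm2 (5.32), the chromosomal passenger subunit Cdca8 (4.92), Steap1 (5.49) and the proliferin gene Prl2c2 (5.39), whose family members are nearly identical and may share a signal.

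Among the 15 largest falls, Gda, which deaminates guanine, read 9.16, 8.75, 9.16 and 8.88 in vivo and 3.76, 4.06, 3.61 and 3.56 in culture. All 4 cultures lay below the control level, so the fall of 5.24 ± 0.14 may be an underestimate (adjusted p = 5.15e-09). Lum, the proteoglycan lumican of collagen fibrils, read 11.40, 11.60, 11.86 and 11.73 in vivo and 6.97, 6.84, 6.62 and 6.88 in culture, a 28.2-fold drop (-4.82 ± 0.12, adjusted p = 4.05e-09). No cultured value came within 4 log2 units of a fresh one. The falls of the RGK-type GTPase Gem (-5.13), the prostaglandin F receptor Ptgfr (-5.10), the glycosyltransferase Galnt15 (-5.05), the amylase Amy1 (-5.04), the leptin receptor Lepr (-4.94), the ferritin receptor Scara5 (-4.94), Olfml1 (-4.86), Sectm1a (-4.84), the hyaluronan-binding gene Tnfaip6 (-4.72), the opioid precursor gene Penk (-4.68), the complement gene C4b (-4.63), the MHC class I gene H2-Q4 (-4.61) and the interferon-induced GTPase Iigp1 (-4.99) were of similar size.

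**Figure D1:**
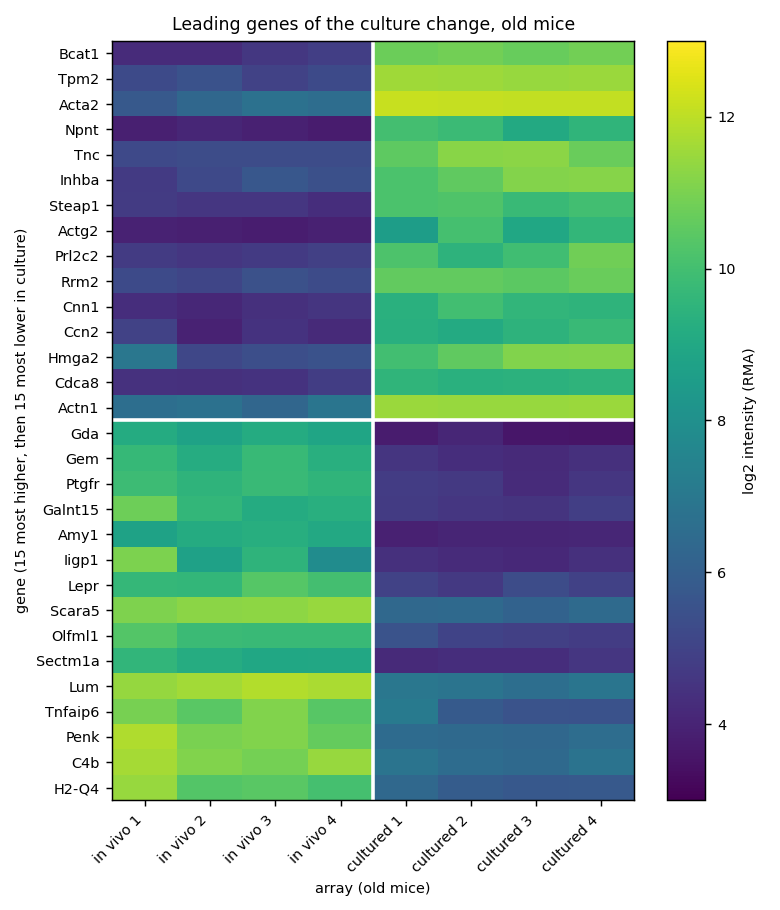
Log2 intensity (colour scale) of the 15 genes with the largest rise and the 15 with the largest fall in culture (rows) on the 4 old in vivo and 4 old cultured arrays (columns). White lines part the conditions and the directions: the upper genes are dark in vivo and bright in culture, the lower genes the reverse, and Iigp1 and Hmga2 show old in vivo replicate 1 as brighter than its group mates.

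**Figure D2:**
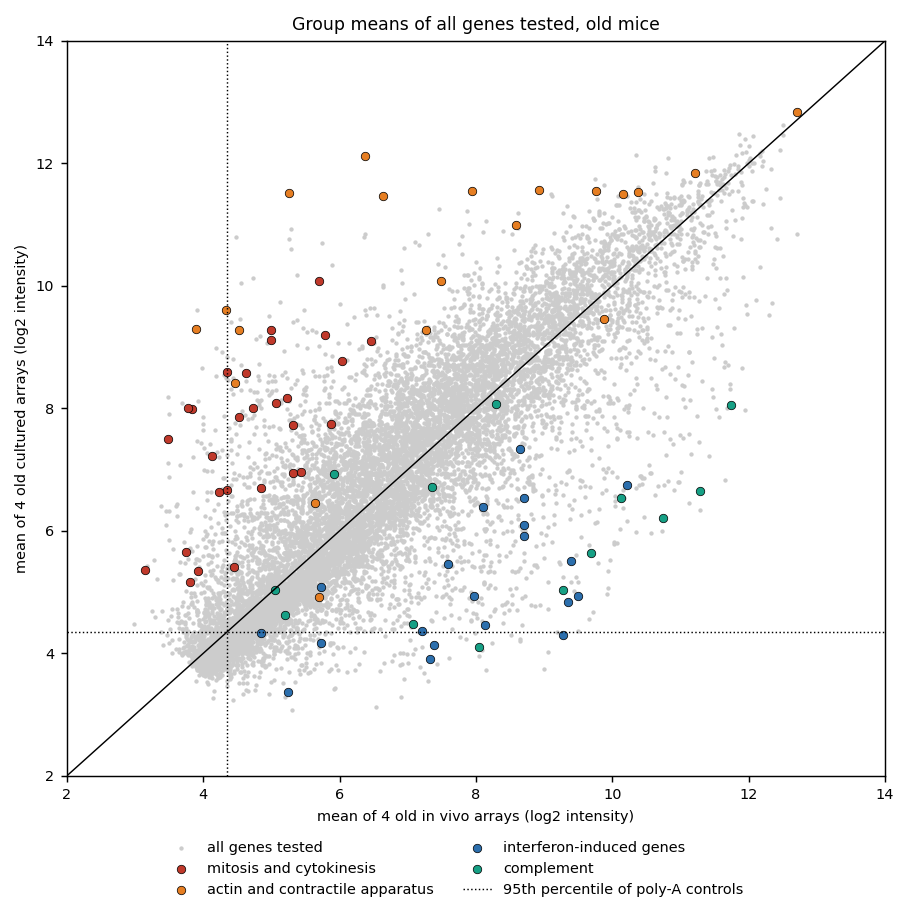
Mean log2 intensity over the 4 old cultured arrays (vertical axis) against that over the 4 old in vivo arrays (horizontal axis) for each of the 14326 genes tested, with the line of equal levels and dotted lines at the control level of 4.34. Mitosis genes (red) lie above the line from a low in vivo level, contractile genes (orange) lie above it at all levels but for a few, and interferon-induced (blue) and most complement genes (green) lie below it.

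The contractile apparatus rose as a group. Of 20 tested genes, 17 rose and 1 fell, with a median change of 2.50, against 30.3% higher and a median of -0.09 over all genes tested. Acta2, the smooth muscle actin of myofibroblasts, read 5.79, 6.35, 6.73 and 6.59 in vivo and 12.17, 12.13, 12.07 and 12.10 in culture, with the groups far apart (53.9-fold, 5.75 ± 0.18, adjusted p = 1.18e-08). Besides the muscle-type genes Tpm2, Acta2, Actg2 and Cnn1, the skeletal muscle actin Acta1 rose by 4.75, the smooth muscle myosin heavy chain Myh11 by 3.96 and the regulatory light chain Myl9 by 3.61, but the smooth muscle leiomodin Lmod1 by only 0.82. Forms found in most cells also ranged widely. The non-muscle alpha-actinin Actn1 rose by 4.84, non-muscle myosin Myh9 rose by 2.59, filamin Flna by 1.34 and cytoplasmic actin Actg1 by 0.64. Beta-actin itself, Actb, read 12.67, 12.62, 12.75 and 12.75 in vivo and 12.88, 12.67, 12.91 and 12.89 in culture, with overlapping groups and a change of 0.14 ± 0.08 that did not pass (adjusted p = 0.166). Desmin, Des, an intermediate filament of muscle, fell by 0.79 ± 0.14. Without old in vivo replicate 1 a further member, the non-muscle myosin Myh10, was also lower (-0.60, adjusted p = 0.0252).

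Genes of cell adhesion moved in both directions. Of 25 focal adhesion and integrin genes 13 rose and 5 fell (median 0.75). Vinculin, Vcl, which links talin to actin at adhesions, rose by 2.73 ± 0.12, the LIM protein Csrp1 by 2.56 ± 0.09 and the enigma protein Pdlim7 by 1.88 ± 0.11. Among integrin subunits Itga8, the receptor of the strongly raised Npnt, rose by 2.21 ± 0.50, Itga6 by 1.70 ± 0.34 and Itgav by 1.36 ± 0.13, while Itga9 fell by 1.91 ± 0.15 and Itgb5 by 1.30 ± 0.11. The fibronectin receptor subunit Itga5 did not pass (0.85 ± 0.35, adjusted p = 0.0554).

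Of 18 targets of the coactivator YAP and the transcription factor SRF, 14 rose and 4 fell, and none missed the threshold (median 1.25). Ccn2, a matricellular growth factor, read 4.99, 3.94, 4.45 and 4.21 in vivo and 9.30, 9.11, 9.46 and 9.77 in culture (32.3-fold, 5.01 ± 0.22, adjusted p = 9.82e-08). Ankrd1, an ankyrin repeat protein of stretched muscle, read 4.34, 4.39, 4.63 and 4.39 in vivo and 8.63, 8.71, 9.16 and 8.73 in culture (20.7-fold, 4.37 ± 0.13, adjusted p = 8.90e-09). Both genes were dim in all fresh samples and separate in culture. The LIM gene Fhl2 rose by 3.62 ± 0.09 and the coagulation initiator F3 by 2.67 ± 0.52. The members that fell were the ectonucleotidase Nt5e (CD73) by 3.15 ± 0.14, Tgfb2 by 1.44 ± 0.22, the junction protein gene Amotl1 by 0.51 ± 0.10 and Ccn1 by 0.27 ± 0.08. Ccn1 and Ccn2, the best known targets of this list, thus went opposite ways, and the call for Ccn1 was lost under 4 alternatives (adjusted p = 0.0528 without old cultured replicate 2 and 0.0551 without replicate 3). The call for Amotl1 was lost with means over probe sets (adjusted p = 0.0828).

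The promoters of Acta1 and Ankrd1, both strongly raised in culture, are shown because they hold letters bound by SRF and TEAD factors. The Acta1 promoter holds 1 CArG box, as do those of Myl9, Cnn2 and Actg1, and Acta1 had the largest change of these 4 genes. The Ankrd1 promoter holds 2 copies of the TEAD letters, as does that of Ajuba, which rose less. They run from 250 bases before to 50 bases after the start of the RefSeq gene on GRCm38.p6, 5′ to 3′ on the gene's strand, with matches in capitals. The first is at chr8:123894726-123895025 (minus strand) and its capitals mark the CArG box, the site read by SRF. The second is at chr19:36119795-36120094 (minus strand) and its capitals mark GGAATG, the letters read by TEAD factors.
Acta1 promoter: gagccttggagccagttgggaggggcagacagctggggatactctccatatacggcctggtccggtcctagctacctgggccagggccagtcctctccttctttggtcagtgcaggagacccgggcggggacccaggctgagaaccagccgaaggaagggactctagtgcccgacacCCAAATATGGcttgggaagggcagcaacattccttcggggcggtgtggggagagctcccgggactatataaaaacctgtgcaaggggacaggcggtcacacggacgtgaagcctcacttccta
Ankrd1 promoter: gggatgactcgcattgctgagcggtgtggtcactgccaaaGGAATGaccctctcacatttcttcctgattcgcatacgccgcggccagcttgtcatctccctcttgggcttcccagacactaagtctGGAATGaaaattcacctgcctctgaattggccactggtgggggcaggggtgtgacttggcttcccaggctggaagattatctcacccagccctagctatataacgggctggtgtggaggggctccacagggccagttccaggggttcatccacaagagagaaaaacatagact
On both strands, the CArG box was found in 4 of 17 contractile genes with a promoter in the RefSeq table (23.5%), against 1.57% of all 27025 promoters of the same length. GGAATG was found in 9 of 17 YAP and SRF targets (52.9%), against 14.6% of all promoters. Of those 9 genes 8 rose and 1, Ccn1, fell. A match is a description of the letters in this window only.

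Each list of matrix genes held some that rose and some that fell. Of 11 fibrillar and fibril-associated collagens, 4 rose and 5 fell (median -0.25), and 3 rose and 6 fell without old in vivo replicate 1. The call for Col5a1, which rose by 0.35, was lost under 10 alternatives (adjusted p = 0.051 to 0.483). The main collagens of dermis stayed bright: Col1a1 read 12.39, 12.48, 12.46 and 12.52 in vivo and 12.25, 12.15, 12.23 and 12.22 in culture, a change of -0.25 ± 0.07 (adjusted p = 0.0126). Col1a2 fell by 0.96 ± 0.14 and Col3a1 by 0.42 ± 0.09. Col14a1, which sits on the surface of fibrils, fell further, by 2.73 ± 0.26, with 7.68, 8.85, 8.79 and 8.05 in vivo and 5.87, 5.81, 5.38 and 5.38 in culture. Col11a1 and Col12a1 rose, by 1.46 ± 0.34 and 1.16 ± 0.26.

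The 17 collagens and laminins of basement membranes and networks held 7 that rose and 5 that fell, and their median of 0.17 changed sign under cyclic loess (-0.09). Within this group 3 of 4 chains of type IV collagen rose (Col4a5 by 3.55 ± 0.11, Col4a2 by 1.65 ± 0.18, Col4a1 by 0.65 ± 0.13), the fourth, Col4a6, did not pass (0.19 ± 0.11, adjusted p = 0.143), and Col4a3 (-1.01 ± 0.22) and Col4a4 (-1.11 ± 0.13), which are not in the list, fell. A rise was also seen for Col7a1 of anchoring fibrils (2.12 ± 0.21). The laminin chains Lama2 (-1.87 ± 0.15), Lamb2 (-1.58 ± 0.14) and Lamc1 (-0.90 ± 0.11) fell, as did Col18a1 (-1.87 ± 0.18) and Col15a1 (-1.44 ± 0.24). Of 17 collagen-modifying genes 7 rose and 4 fell, with a median of 0.15 that was -0.01 after scaling to the 75th percentile, -0.12 after cyclic loess and -0.01 without old in vivo replicate 1. Some crosslinking enzymes rose: Plod2, a lysyl hydroxylase of collagen telopeptides, read 5.80, 5.36, 5.19 and 6.06 in vivo and 9.12, 9.38, 9.41 and 9.16 in culture (3.67 ± 0.18, adjusted p = 2.06e-07), Loxl3 rose by 3.67 ± 0.14 and Lox by 2.40 ± 0.24. The other lysyl oxidases tested, Loxl1 (-0.55 ± 0.22, adjusted p = 0.0565), Loxl2 (0.20 ± 0.19, adjusted p = 0.369) and Loxl4 (-0.14 ± 0.17, adjusted p = 0.484), did not pass, and without old in vivo replicate 1 Loxl1 was lower (-0.79, adjusted p = 4.90e-04). The enhancer of procollagen cleavage Pcolce2 fell by 2.75 ± 0.17 and the procollagen protease Bmp1 by 1.39 ± 0.14. The collagen chaperone Serpinh1 was level (0.07 ± 0.14, adjusted p = 0.699).

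Among proteoglycans and elastic fibre genes more fell than rose. Of 18 proteoglycan and hyaluronan genes 9 fell and 5 rose (median -0.35). With Lum, the small leucine-rich genes Aspn (-2.53 ± 0.42), Ogn (-2.16 ± 0.34), Podn (-1.94 ± 0.29) and Dcn (-1.85 ± 0.08) fell, and Has1, a hyaluronan synthase, fell by 3.63 ± 0.12. Fmod (1.62 ± 0.46), the hyaluronan receptor Cd44 (2.33 ± 0.15) and the glypican Gpc1 (2.72 ± 0.16) rose. Of 23 elastic fibre and matricellular genes 13 fell and 3 rose (median -0.65). Elastin, Eln, fell by 2.58 ± 0.14, and the fall was shared by the microfibril genes Mfap4 (-2.86 ± 0.30) and Mfap2 (-2.56 ± 0.17) and by Efemp1 (-3.33 ± 0.40) and Ltbp4 (-2.95 ± 0.09). The 3 members that rose were Tnc, with 5.21, 5.34, 5.31 and 5.32 in vivo and 10.51, 11.21, 11.26 and 10.70 in culture (49.4-fold, adjusted p = 9.04e-09), Ltbp2 (3.27 ± 0.17) and Fbln2 (3.10 ± 0.16). Fibronectin, Fn1 (-0.03 ± 0.10, adjusted p = 0.793), and Sparc (-0.01 ± 0.09, adjusted p = 0.946) did not pass.

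Of 21 genes of the metalloproteinases, the plasmin system and their inhibitors, 8 fell and 5 rose (median -0.26). The stromelysin gene Mmp3 fell by 2.98 ± 0.16 and the gelatinase gene Mmp2 by 2.30 ± 0.10, while the inhibitor Timp1 rose 14.1-fold, from 7.23, 7.24, 7.70 and 7.63 in vivo to 11.24, 11.42, 11.14 and 11.26 in culture (adjusted p = 1.83e-08). Timp2 fell by 0.88 ± 0.08. The membrane proteases Adam19 (3.59 ± 0.19) and Adam12 (2.39 ± 0.20) rose.

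Genes of cell division rose together. All 28 tested mitosis and cytokinesis genes rose (median 2.83), 27 of them at least 2-fold, and 10 had in vivo means under the control level. Ccna2, a cyclin that acts in S phase and at mitotic entry, read 5.61, 5.19, 5.90 and 6.08 in vivo and 10.20, 10.13, 9.94 and 10.06 in culture (20.9-fold, 4.39 ± 0.17, adjusted p = 5.00e-08). Birc5, the survivin of the chromosomal passenger complex, rose by 4.29 ± 0.16, the centromere histone Cenpa by 4.26 ± 0.11, the cleavage furrow protein Anln by 4.21 ± 0.10 and the mitotic cyclin Ccnb2 by 3.27 ± 0.12. Of 26 DNA replication genes 24 rose and none fell (median 1.96). Rrm2, which makes deoxynucleotides, read 5.26, 5.10, 5.48 and 5.29 in vivo and 10.61, 10.61, 10.48 and 10.70 in culture (39.9-fold, 5.32 ± 0.10, adjusted p = 2.61e-09). The helicase subunits Mcm2 (4.16 ± 0.19) and Mcm5 (3.69 ± 0.16) and the licensing factor Cdt1 (3.45 ± 0.24) rose. Pcna, the sliding clamp often used to mark dividing cells, read 10.44, 10.09, 10.41 and 10.15 in vivo and 10.46, 10.45, 10.02 and 10.17 in culture, with overlapping groups (0.00 ± 0.13, adjusted p = 0.987). Orc1 was the other member that did not pass (-0.22 ± 0.14).

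Of 17 genes of the G1/S machinery 12 rose and 2 fell (median 0.90). Cdk1 rose by 3.85 ± 0.12, Cdk6 by 2.38 ± 0.27 and the E2F repressor E2f7 by 2.34 ± 0.21. The pocket protein gene Rbl2, which keeps quiescent cells out of the cycle, fell by 1.55 ± 0.12, Ccnd1 rose by 0.81 ± 0.12, and Rb1 was level (0.08 ± 0.09, adjusted p = 0.442).

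The promoters of Anln and Ccnb2 and of Pola1, the catalytic subunit of DNA polymerase alpha, are shown as examples of promoters with cell cycle motifs. Anln and Ccnb2 hold 2 copies of TTTGAA each, as do Top2a and Ect2, and had the largest changes of these 4 genes. Copies of CCAAT were more numerous elsewhere, with 6 in Ube2c and Top2a against 3 in Ccnb2 and 0 in Anln. Pola1 holds 2 copies of TTCCCGC, and each other replication gene with a match holds 1. Capitals mark TTTGAA (CHR) in Anln, at chr9:22389157-22389456 (minus strand). They mark TTTGAA and CCAAT, the box read by NF-Y, in Ccnb2, at chr9:70421505-70421804 (minus strand). In Pola1, at chrX:93632106-93632405 (minus strand), they mark TTCCCGC, a core read by E2F factors. Matches on either strand are marked.
Anln promoter: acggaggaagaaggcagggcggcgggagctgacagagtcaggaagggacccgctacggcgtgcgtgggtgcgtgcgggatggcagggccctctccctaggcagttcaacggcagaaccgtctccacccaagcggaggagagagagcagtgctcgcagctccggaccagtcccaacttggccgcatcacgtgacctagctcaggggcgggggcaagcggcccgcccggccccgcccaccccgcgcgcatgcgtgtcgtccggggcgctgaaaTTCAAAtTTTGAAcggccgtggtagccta
Ccnb2 promoter: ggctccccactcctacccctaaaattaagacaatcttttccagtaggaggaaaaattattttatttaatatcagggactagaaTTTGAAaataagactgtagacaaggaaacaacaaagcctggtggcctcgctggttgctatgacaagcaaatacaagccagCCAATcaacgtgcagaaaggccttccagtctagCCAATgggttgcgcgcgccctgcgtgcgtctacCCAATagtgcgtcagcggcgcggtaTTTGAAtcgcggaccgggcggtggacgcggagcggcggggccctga
Pola1 promoter: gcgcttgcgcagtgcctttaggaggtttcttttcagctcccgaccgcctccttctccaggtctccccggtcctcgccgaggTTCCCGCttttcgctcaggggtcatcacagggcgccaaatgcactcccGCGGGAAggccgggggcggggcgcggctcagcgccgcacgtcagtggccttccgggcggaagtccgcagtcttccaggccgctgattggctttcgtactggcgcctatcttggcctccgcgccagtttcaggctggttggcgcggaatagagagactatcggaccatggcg
TTTGAA was found in 18 of 23 mitosis genes with a promoter in the table (78.3%), against 18.1% of all promoters, and CCAAT also in 18 of 23, against 37.9%. TTCCCGC was found in 9 of 23 replication genes (39.1%), against 4.66%.

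The 21 cell cycle inhibitors, p53 targets and senescence genes were divided, 8 up and 7 down, with a median of 0.09 that turned negative after scaling to the 75th percentile (-0.07), with means over probe sets (-0.01) and without old cultured replicate 2 (-0.03). The inhibitor Cdkn1c (p57) fell, from 9.01, 8.11, 7.89 and 7.28 in vivo to 5.56, 4.65, 4.51 and 4.90 in culture (-3.17 ± 0.35, adjusted p = 3.59e-05). Cdkn1b (p27) fell by 0.63 ± 0.22 and Cdkn1a (p21) by 0.44 ± 0.13. The senescence-linked inhibitors Cdkn2b (p15) and Cdkn2a (p16 and p19) rose, by 1.83 ± 0.23 and 0.95 ± 0.17; Cdkn2a stayed dim, at 4.44, 4.37, 4.31 and 4.58 in vivo and 5.14, 5.29, 5.92 and 5.15 in culture. Hmga2 rose 31.0-fold. The p53 targets Zmat3 (1.43 ± 0.13), Phlda3 (1.47 ± 0.20) and Ccng1 (1.36 ± 0.11) rose, while Btg2 (-2.17 ± 0.14), Gadd45b (-2.46 ± 0.16) and Gadd45a (-1.56 ± 0.18), which are also early response genes, fell. Sesn1, another p53 target, fell too (-1.60).

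Immediate early genes were high in the freshly isolated cells and lower in culture. Of 23 tested, 18 fell and 2 rose (median -1.42). Fos read 12.08, 11.98, 11.96 and 11.87 in vivo and 9.76, 9.57, 9.33 and 9.50 in culture (-2.43 ± 0.10, adjusted p = 7.86e-08), and the stress factor Atf3 read 11.56, 11.37, 11.71 and 11.27 in vivo and 8.37, 8.17, 8.03 and 8.16 in culture (-3.29 ± 0.12, adjusted p = 2.47e-08). Both groups of values were tight and separate. Junb fell by 3.04 ± 0.16, the nuclear receptor Nr4a1 by 2.17 ± 0.22 and Egr1 by 1.36 ± 0.10. Fosl1, a Fos family member of growing cells, rose by 0.75 ± 0.23, and Ier5 by 0.30 ± 0.11. The call for Fosl1 was lost after cyclic loess (adjusted p = 0.121), and that for Ier5 under 7 alternatives (adjusted p = 0.0519 to 0.277). Of 17 NF-kB pathway genes 13 fell and 1 rose (median -0.77): the adhesion molecule Icam1 read 11.19, 10.94, 11.14 and 10.63 in vivo and 6.91, 6.87, 6.64 and 6.78 in culture (18.1-fold lower, adjusted p = 1.18e-08), the inhibitors Nfkbie and Nfkbia fell by 2.83 ± 0.17 and 2.67 ± 0.09, and Vcam1 was the member that rose (1.82 ± 0.25). Without old in vivo replicate 1 Sod2, a mitochondrial superoxide dismutase, was also higher (0.28, adjusted p = 0.0255).

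Interferon-induced genes, which serve antiviral defence and antigen presentation, fell without exception. All 20 tested members fell (median -2.81), 18 of them at least 2-fold. Without old in vivo replicate 1 all 20 still fell (median -2.56), and 18 fell after cyclic loess. Iigp1 read 11.04, 8.72, 9.50 and 7.85 in vivo and 4.39, 4.22, 4.16 and 4.40 in culture (-4.99 ± 0.55, adjusted p = 3.58e-05). Replicate 1 was the highest fresh sample, all 4 cultures were near the control level, and the change was -4.40 without that replicate. The guanylate-binding gene Gbp2 fell by 4.56 ± 0.34, Igtp by 4.51 ± 0.45 and the regulator Irf1 by 3.47 ± 0.22. Ifit3 read 9.30, 8.58, 8.63 and 8.32 in vivo and 6.17, 6.16, 6.78 and 7.04 in culture, so 2 of the cultures kept somewhat more of it than the others (-2.17 ± 0.25, adjusted p = 5.23e-05).

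The promoters of Ifit3, at chr19:34583279-34583578 (plus strand), and of Ifit1, at chr19:34640639-34640938 (plus strand), hold the most matches among these fallen genes to GAAANNGAA, the repeat read by interferon response factors. Capitals mark the matches, which here lie on the opposite strand and overlap once in Ifit1.
Ifit3 promoter: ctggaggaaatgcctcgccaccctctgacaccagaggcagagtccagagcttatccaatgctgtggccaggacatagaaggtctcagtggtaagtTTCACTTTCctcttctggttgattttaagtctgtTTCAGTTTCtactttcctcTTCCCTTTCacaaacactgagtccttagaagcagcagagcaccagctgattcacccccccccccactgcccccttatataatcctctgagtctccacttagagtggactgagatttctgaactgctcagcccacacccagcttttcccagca
Ifit1 promoter: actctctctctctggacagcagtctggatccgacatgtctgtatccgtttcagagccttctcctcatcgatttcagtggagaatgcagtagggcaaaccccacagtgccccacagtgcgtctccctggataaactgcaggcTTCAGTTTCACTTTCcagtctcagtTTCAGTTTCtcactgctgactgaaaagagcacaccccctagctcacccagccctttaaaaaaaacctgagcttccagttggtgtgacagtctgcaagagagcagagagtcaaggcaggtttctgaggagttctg
The repeat was found in 10 of 17 interferon-induced genes with a promoter in the table (58.8%), against 8.57% of all promoters. All 10 fell, as did every tested member of the list, with or without the repeat.

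Antigen presentation followed. All 13 MHC class I and processing genes fell (median -1.74, and -1.68 without old in vivo replicate 1). H2-Q4 read 11.45, 10.31, 10.46 and 10.05 in vivo and 6.36, 5.92, 5.77 and 5.79 in culture (-4.61 ± 0.28, adjusted p = 7.06e-07); MHC class I genes are alike in sequence and their probe sets may not separate them. The immunoproteasome subunit Psmb8 fell by 4.04 ± 0.15, the peptide loading factor Tapbp by 2.65 ± 0.09 and the classical genes H2-D1 and H2-K1 by 1.74 ± 0.10 and 1.65 ± 0.08. The standard proteasome went the other way. All 27 tested subunits of its 20S core and 19S cap rose (median 0.80), 6 of them at least 2-fold, with Psmd14, a deubiquitinating subunit, at 1.56 ± 0.10. Psmb5, the standard counterpart of Psmb8 in the core, rose by 0.91 ± 0.12.

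Complement had the lowest median of the lists (-3.61), with 10 of 13 genes lower and 1 higher. C4b read 11.65, 11.10, 10.92 and 11.46 in vivo and 6.84, 6.55, 6.40 and 6.80 in culture (24.8-fold lower, adjusted p = 2.98e-08). The proteases C1s1 (-4.54 ± 0.27) and C1ra (-4.23 ± 0.19) of the first component fell, as did factor B, Cfb (-4.04 ± 0.15), C2 (-3.95 ± 0.21), the C1 inhibitor Serping1 (-3.68 ± 0.11) and the decay-accelerating factor Cd55 (-3.61 ± 0.24). Cd59a, which blocks the membrane attack complex, rose by 0.99 ± 0.23.

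Of 21 chemokines and cytokines 10 fell and 2 rose (median -0.80, and -0.54 without old in vivo replicate 1). Ccl11, the eosinophil attractant eotaxin, fell by 4.33 ± 0.14, Ccl19, which attracts dendritic and T cells, by 4.25 ± 0.12 and Cxcl10, induced by interferon, by 4.21 ± 0.32. Cxcl12, a chemokine of stromal niches, read 10.63, 10.02, 9.82 and 9.77 in vivo and 8.27, 7.27, 6.41 and 5.56 in culture (-3.18 ± 0.49, adjusted p = 3.66e-04). All cultures were below all fresh samples, but they were spread over more than 2 log2 units. The decoy receptor Tnfrsf11b (2.02 ± 0.22) and the macrophage growth factor Csf1 (1.30 ± 0.10) rose. Of 12 prostaglandin genes 7 fell and 3 rose (median -0.43). The inducible cyclooxygenase Ptgs2 read 3.46, 3.36, 3.68 and 3.41 in vivo and 6.64, 8.21, 8.69 and 9.22 in culture, at the control level in every fresh sample and between moderate and high in the cultures (4.71 ± 0.45, adjusted p = 1.48e-05). Pla2g4a, which releases its substrate, rose by 3.19 ± 0.25, the degrading enzyme Hpgd fell by 2.81 ± 0.21 and the receptor Ptgfr fell 34.2-fold. Another phospholipase gene, Pla2g2e, fell by 3.49. The receptor gene Ptger4 rose by 1.27 and Ptger3 fell by 1.32.

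**Figure D3:**
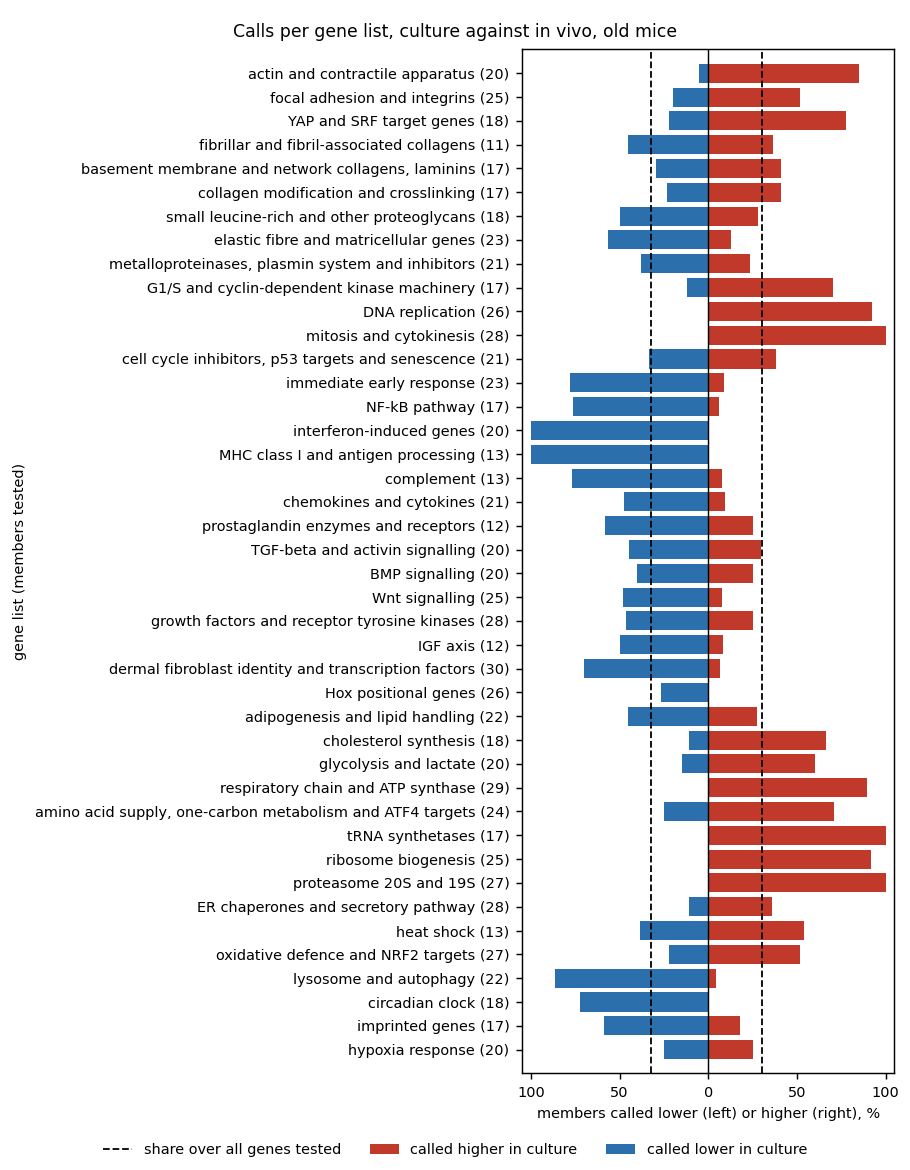
Share of tested members called higher (red, to the right) and lower (blue, to the left) in culture, in percent, for each gene list, with the number tested in brackets. Dashed lines mark the shares over all genes tested (30.3% higher, 32.1% lower): the mitosis, tRNA synthetase and proteasome lists reach the full share to the right, and the interferon-induced and MHC class I lists to the left.

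Each list of signalling genes held some that rose and some that fell, with more falls than rises. Of 20 TGF-beta and activin genes 6 rose and 9 fell, with a median of -0.09 that was 0.02 with means over probe sets and 0.01 without old in vivo replicate 3. Among ligands Inhba read 4.68, 5.22, 5.72 and 5.43 in vivo and 10.17, 10.54, 11.14 and 11.19 in culture (5.50 ± 0.27, adjusted p = 2.01e-07), and Tgfb1 rose by 1.81 ± 0.26. The ligand gene Tgfb3 rose by 1.01 and Tgfb2 fell by 1.44. Of the receptors Tgfbr2, which binds the ligand first, fell from 11.34, 11.43, 11.48 and 11.58 to 8.39, 8.55, 8.27 and 8.04 (-3.15 ± 0.12), Tgfbr3 fell by 2.57 ± 0.22 and Tgfbr1 did not pass (-0.23 ± 0.14, adjusted p = 0.182). The target Tgfbi fell by 3.71 ± 0.19, and the feedback genes Skil and Smad7 rose by 1.93 ± 0.20 and 0.93 ± 0.25.

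Of 20 BMP genes 5 rose and 8 fell, with a median of -0.07 that was 0.02 without old in vivo replicate 3. The ligands Bmp4 (-4.43 ± 0.13), Bmp7 (-3.52 ± 0.24) and Bmp2 (-2.92 ± 0.17) fell, while the target genes were divided, with Id1 (1.72 ± 0.15) and Id4 (1.28 ± 0.19) higher and Id2 (-1.35 ± 0.16) lower. In the Wnt list 12 of 25 genes fell and 2 rose (median -0.44). The feedback target Axin2 fell by 2.96 ± 0.12, the agonist Rspo1 by 3.58 ± 0.09, the receptor Fzd1 by 1.96 ± 0.22 and the ligand Wnt5a by 1.21 ± 0.23, and Fzd7 rose by 1.39 ± 0.16. Ctnnb1, beta-catenin, was level (0.14 ± 0.08, adjusted p = 0.152).

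Of 28 growth factor and receptor genes 7 rose, all of them ligands, and 13 fell (median -0.32). The ligands Pdgfc (3.75 ± 0.26), Ereg (2.10 ± 0.40), Hbegf (1.87 ± 0.50) and Fgf2 (1.13 ± 0.33) rose. The receptors Egfr (-1.96 ± 0.14), Fgfr2 (-1.82 ± 0.27), Fgfr1 (-0.86 ± 0.10) and Ntrk2 (-2.15 ± 0.10) fell. The falls also took in the ligand Gas6 (-2.27), the receptor Kdr (-2.78) and the receptor-like gene Pdgfrl (-2.87). The PDGF receptor Pdgfrb did not pass (0.10 ± 0.10, adjusted p = 0.389). In the IGF axis 6 of 12 genes fell and 1 rose (median -1.47, and -1.04 without old in vivo replicate 1). The fetal growth factor Igf2 read 9.52, 9.71, 9.74 and 8.60 in vivo and 5.29, 5.23, 5.14 and 5.01 in culture (18.7-fold lower, adjusted p = 3.83e-07), Igf1 fell by 2.69 ± 0.27 and Igfbp5 by 3.60 ± 0.22. Igfbp3 read 10.47, 5.69, 5.89 and 4.89 in vivo and 5.21, 4.91, 4.62 and 4.46 in culture. Replicate 1 alone was high and the groups overlapped, and the change of -1.94 ± 1.02 did not pass (adjusted p = 0.121), whereas without that replicate it was -0.69 (adjusted p = 0.0422).

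Dermal identity genes fell more often than they rose. Of 30 tested, 21 fell and 2 rose (median -0.66). Cd34, a surface marker of dermal fibroblasts, read 11.05, 11.58, 11.38 and 11.62 in vivo and 7.42, 7.22, 7.03 and 7.21 in culture (-4.19 ± 0.14, adjusted p = 1.66e-08). The surface peptidase Dpp4 fell by 3.56 ± 0.13, the universal fibroblast marker Pi16 by 2.74 ± 0.35, the guidance factor Ntn1 by 4.43 ± 0.10, and the mesenchymal factors Twist1, Prrx1 and Zeb2 by 1.60 ± 0.16, 0.69 ± 0.08 and 1.50 ± 0.09. Thy1 fell by 0.62 ± 0.16, with overlapping groups. The preadipocyte gene Dlk1 rose, from 4.20, 4.52, 4.52 and 4.48 in vivo to 8.86, 7.59, 5.68 and 5.22 in culture (2.41 ± 0.68, adjusted p = 0.012), with a range of over 3 log2 units among the cultures. Few positional genes passed: of 26 Hox and limb genes none rose, 7 fell and 19 did not pass (median -0.18), and the falls reached 2-fold only for Hoxa9 (-1.24 ± 0.17) and Hoxd9 (-1.40 ± 0.44), the latter with overlapping groups and no call without old in vivo replicate 2 (adjusted p = 0.0512).

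Of 17 imprinted genes 10 fell and 3 rose (median -0.28). Cdkn1c, Igf2 and the zinc finger gene Plagl1 (-1.36 ± 0.33) of the imprinted growth network fell, and Peg3 fell by 1.82 ± 0.27. The noncoding neighbours of Dlk1, Meg3, Rian and Mirg, were high in cultures 1 and 2 and low in cultures 3 and 4. Meg3 read 10.88, 10.48, 8.89 and 9.36, Rian 9.31, 8.93, 7.07 and 7.65 and Mirg 8.08, 7.86, 5.26 and 6.41 in old cultured replicates 1 to 4. In vivo Meg3 read 9.61, 9.64, 9.90 and 9.50. Of these 3 noncoding genes Mirg alone passed (1.72 ± 0.57, adjusted p = 0.0243), with overlapping groups, and its call was lost without old in vivo replicate 1, 2 or 3 or old cultured replicate 1 or 2 (adjusted p = 0.0511 to 0.0706).

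Biosynthesis rose broadly. All 17 tRNA synthetases rose (median 1.30), led by Rars (2.19 ± 0.16) and Gars (1.96 ± 0.08). Of 24 genes of amino acid supply, one-carbon metabolism and ATF4 targets 17 rose and 6 fell (median 1.52). Asparagine synthetase, Asns, read 5.60, 4.81, 5.23 and 5.89 in vivo and 10.23, 10.27, 10.08 and 10.16 in culture (27.9-fold, adjusted p = 7.38e-08). The serine pathway enzymes Psat1 (4.48 ± 0.19), Psph (3.14 ± 0.12) and Phgdh (2.35 ± 0.19), the mitochondrial folate enzyme Aldh1l2 (4.80 ± 0.14) and the glutathione-degrading stress gene Chac1 (4.67 ± 0.15) rose. Atf4, the factor that drives many of them, fell at the mRNA level, from 10.06, 10.02, 10.47 and 10.07 to 9.55, 9.57, 9.53 and 9.56 (-0.60 ± 0.11, adjusted p = 8.78e-04). The mitochondrial branched-chain enzymes Bcat2 (-0.47 ± 0.16), Bckdha (-0.62 ± 0.11) and Bckdhb (-0.70 ± 0.13) fell while cytosolic Bcat1 rose. Of 25 ribosome biogenesis genes 23 rose and none fell (median 0.91), with Wdr12 (2.65 ± 0.16) and Nhp2 (2.29 ± 0.16) in the lead.

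More genes of energy metabolism rose than fell in both branches. Of 29 respiratory chain and ATP synthase genes 26 rose and none fell (median 0.62), but only 5 by 2-fold or more, among them Cox5a (1.78 ± 0.15). After cyclic loess 21 rose. Of 20 glycolysis and lactate genes 12 rose and 3 fell (median 0.59). The lactate exporter Slc16a3 rose by 2.36 ± 0.21, Pgk1 by 2.00 ± 0.08, the glucose transporter Slc2a1 by 1.69 ± 0.28 and Ldha by 1.30 ± 0.09. Ldhb, the subunit that favours lactate use, fell, with 8.25, 8.20, 8.17 and 7.96 in vivo and 7.54, 7.18, 7.39 and 7.15 in culture (-0.83 ± 0.11, adjusted p = 1.37e-04). In the hypoxia list 5 of 20 genes rose and 5 fell, and the median of 0.04 was -0.12 after scaling to the 75th percentile, -0.08 without old cultured replicate 3 and -0.07 without replicate 4. Egln3, an oxygen-sensing prolyl hydroxylase, rose by 2.37 ± 0.41 and Ndrg1 fell by 3.66 ± 0.16.

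Of 18 cholesterol synthesis genes 12 rose and 2 fell (median 1.05). Squalene epoxidase, Sqle, read 3.98, 4.68, 4.92 and 6.22 in vivo and 8.27, 8.31, 8.55 and 8.58 in culture (3.48 ± 0.38, adjusted p = 3.80e-05); the fresh samples were spread over 2 log2 units and the cultures were alike. Fdps (2.28 ± 0.43), Idi1 (2.21 ± 0.39) and Cyp51 (1.99 ± 0.37) also rose. The 2 members that fell were Hmgcs1 (-0.66) and Ebp (-0.51). Of 22 genes of adipogenesis and lipid handling 6 rose and 10 fell (median -0.25). Pparg, the master factor of fat cells, read 5.28, 5.54, 5.44 and 5.60 in vivo and 9.21, 8.20, 7.41 and 8.09 in culture (2.76 ± 0.31, adjusted p = 4.06e-05), and the fatty acid binding genes Fabp5 (4.46 ± 0.27) and Fabp4 (3.73 ± 0.60) rose. Culture 1 was the highest for Pparg. The lipid carriers Apoe (-3.65 ± 0.21) and Apod (-3.54 ± 0.15), the transporters Abca8a (-4.59 ± 0.25) and Abca9 (-3.59 ± 0.18) and the factor Cebpd (-1.95 ± 0.27) fell.

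Among protein folding and stress lists, 10 of 28 endoplasmic reticulum and secretory genes rose and 3 fell (median 0.28), but 9 rose and 7 fell without old in vivo replicate 1, and 4 rose and 7 fell after cyclic loess. The coat protein gene Sec23a rose by 1.73 ± 0.24, and the secretory factor Creb3l1 fell by 1.57 ± 0.21. The chaperone Hspa5 (BiP) did not pass (-0.15 ± 0.11, adjusted p = 0.225). Of 13 heat shock genes 7 rose and 5 fell (median 0.34); the small chaperone Hspb1 rose by 2.78 ± 0.14 and the inducible Hspa1b fell by 1.22 ± 0.13. Of 27 oxidative defence genes and NRF2 targets 14 rose and 6 fell (median 0.53). The quinone reductase Nqo1 read 5.40, 5.64, 5.35 and 5.40 in vivo and 7.62, 8.26, 9.54 and 9.08 in culture (3.18 ± 0.35, adjusted p = 3.77e-05), and Me1 (2.38 ± 0.22) and Gsr (1.47 ± 0.17) rose, whereas the extracellular superoxide dismutase Sod3 (-3.48 ± 0.25) and the transferases Gstt1 (-3.53 ± 0.09) and Gstm1 (-2.43 ± 0.14) fell.

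Of 22 lysosome and autophagy genes 19 fell and 1 rose (median -0.61). Cathepsin K, Ctsk, the collagen-degrading protease, fell by 1.51 ± 0.08, Ctsh by 1.24 ± 0.26 and Lamp2 by 0.95 ± 0.09. Atg5 was the member that rose (0.35 ± 0.14), and that call was lost under 10 alternatives (adjusted p = 0.0532 to 0.179). Of 18 clock genes 13 fell and none rose (median -0.68), the largest fall being that of the nuclear receptor Rora (-2.83 ± 0.15). The core factor Arntl did not pass (-0.52 ± 0.22, adjusted p = 0.067).

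Marker lists of other cell types differed in how far they moved, against 30.3% of all genes tested higher and 32.1% lower. Over the 8 arrays the shares of endothelial and of keratinocyte markers that fell were below 32.1%. None of the 2 mast cell and 3 neutrophil markers tested passed. Of 11 tested macrophage and monocyte markers 9 fell and none rose, with a summed level of 9.52 to 9.87 in vivo and 8.45 to 8.53 in culture. Cd68 read 8.61, 8.16, 8.01 and 7.63 in vivo and 5.40, 5.46, 5.65 and 5.57 in culture, and Ctss 7.42, 6.92, 7.57 and 6.92 and 3.98, 4.15, 4.01 and 4.28. The defining markers Adgre1, Itgam, Cd163 and C1qa did not reach the expression filter. Of 11 endothelial markers 3 fell and none rose (summed 9.30 to 10.03 in vivo, 8.13 to 8.92 in culture). Tek read 6.24, 7.15, 6.74 and 7.81 in vivo and 4.91, 3.74, 3.56 and 3.72 in culture, while Cldn5 and Vwf lay near the control level in both. Of 8 pericyte and smooth muscle markers 2 rose and 3 fell (summed 10.06 to 10.47 and 9.42 to 9.77). The channel gene Kcnj8 read 7.67, 8.56, 8.70 and 8.00 in vivo and 4.29, 3.79, 4.31 and 4.28 in culture, while Rgs5 was low throughout, at 4.56, 4.42, 4.59 and 4.67 in vivo and 4.51, 4.56, 4.50 and 4.77 in culture. All 5 tested melanocyte markers fell (summed 8.63 to 9.56 and 7.26 to 7.82), with Mitf at 9.01, 7.67, 8.15 and 7.96 in vivo and 4.75, 5.13, 5.49 and 6.37 in culture, and the pigment genes Dct and Tyrp1 did not reach the filter. Of 8 T cell markers 6 fell, and 2 without old in vivo replicate 1 (summed 11.03 to 11.81 and 10.77 to 10.98), a sum in which Thy1, also a fibroblast gene, is the bright member. The leukocyte gene Ptprc did not reach the filter. The part of these cells in the falls of interferon, MHC, complement and chemokine genes was not tested.

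Of 11 keratinocyte markers 3 fell and 1 rose, and 5 fell and 2 rose without old in vivo replicate 1, with a summed level of 9.12 to 10.65 in vivo and 8.53 to 8.65 in culture. Krt5, a keratin of basal epidermis, read 9.68, 5.79, 6.14 and 5.74 in vivo and 5.51, 5.22, 5.57 and 5.53 in culture, and Krt14, its partner, 7.11, 4.78, 4.92 and 4.78 and 4.59, 4.53, 4.50 and 4.59. Only old in vivo replicate 1 was high. Neither gene passed over the 8 arrays (adjusted p = 0.138 and 0.133), and without replicate 1 smaller changes passed, -0.43 (adjusted p = 0.0177) and -0.27 (adjusted p = 0.0157).

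The old cultures differed among themselves for a limited set of genes. The median SD over the 4 arrays was 0.166 in vivo and 0.124 in culture, and 39 genes in vivo and 60 in culture had an SD over 1. The genes named here were chosen after their values were seen, as those with the largest spread among the cultures. Lgr5, a Wnt-linked receptor, read 7.89, 7.86, 8.36 and 7.10 in vivo and 8.47, 4.57, 3.81 and 3.27 in culture, so culture 1 alone kept the level of fresh cells. Slc38a4, an amino acid transporter, read 3.66, 4.17, 3.94 and 3.93 in vivo and 10.28, 9.12, 7.94 and 5.14 in culture, falling short in culture 4, which lay nearest to the fresh level. Col2a1, the cartilage collagen, read 9.99, 7.89, 5.48 and 5.41 in culture against 5.57, 5.48, 5.43 and 5.42 in vivo, high in cultures 1 and 2 only. Sfrp1, a secreted Wnt inhibitor, shared this order, with 9.16, 7.74, 4.98 and 5.14 in culture against 9.30, 9.37, 9.08 and 8.90 in vivo. The opposite order was seen for Tnnt2, cardiac troponin T (5.35, 6.88, 8.89 and 8.72 in culture), and for the desmosomal gene Pkp1 (4.00, 4.46, 7.84 and 7.34), both higher in cultures 3 and 4. Lce1h, an epidermal envelope gene, read 4.10, 8.61, 8.61 and 7.96 in culture and 4.42, 4.27, 4.40 and 4.51 in vivo, so cultures 2 to 4 were high and culture 1 was not. The labels do not say which cultures share a collection day or a mouse with which fresh sample.

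Among the fresh samples, replicate 1 was alone in being high for the interferon-induced genes Tgtp1, at 9.10, 5.38, 5.25 and 4.68, and Cxcl9, at 8.14, 4.69, 3.93 and 4.29. Replicate 4 was highest for the progesterone receptor gene Pgr, at 4.73, 6.09, 5.67 and 8.68, and for the transglutaminase gene Tgm2, at 7.46, 8.68, 7.70 and 10.90.

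**Figure D4:**
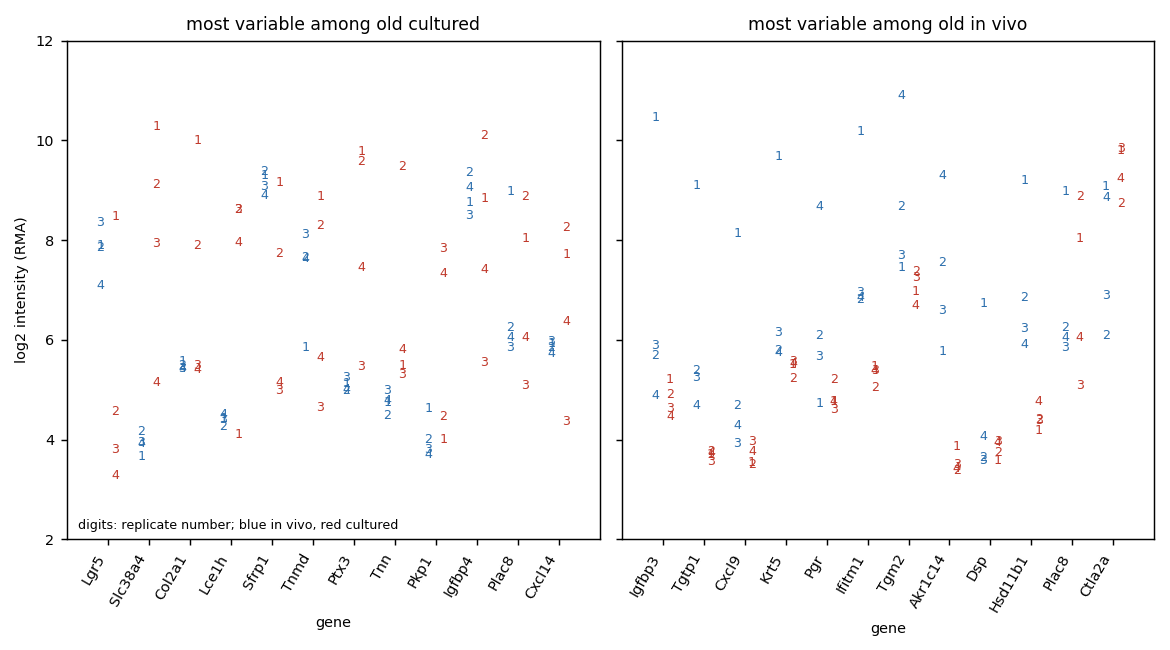
Log2 intensity (vertical axis) of the 12 genes with the largest spread among the old cultures (left) and the 12 with the largest spread among the old in vivo samples (right). Each digit is the replicate number of an array, blue for in vivo and red for cultured: culture 1 alone holds the fresh level of Lgr5, cultures 1 and 2 lie above cultures 3 and 4 for Col2a1 and Sfrp1, and in vivo replicate 1 stands alone for Igfbp3 and Krt5.

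The culture change of old cells was last set against that of young cells, in a fit over all 16 arrays. Of 14819 genes tested, 87 (0.587%) differed, 29 with a more positive and 58 with a more negative change in old cells, and 1823 had an unadjusted p under 0.05. For 85 of the 87 genes the age difference was smaller in culture than in vivo: the median size of the age difference was 0.89 in vivo and 0.09 in culture. Of these genes 86 passed for age in vivo and 0 for age in culture, tests that share arrays with the one that chose them. The change passed in the same direction at both ages for 60 genes, and in opposite directions for 8.

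Bcat1 had the largest such difference (4.15 ± 0.25, adjusted p = 6.23e-08). It rose by 6.32 in old and by 2.17 in young cells, which had read 9.18, 8.59, 8.44 and 8.18 in vivo and reached 10.80, 10.68, 10.87 and 10.70 in culture. Old and young fresh cells did not overlap, and old and young cultures did. Creb3l3, a membrane-bound transcription factor, differed by 2.97 ± 0.17 (adjusted p = 5.14e-08): it read 8.87, 8.68, 8.77 and 8.62 in young and 5.87, 6.20, 6.20 and 5.98 in old cells in vivo, and 5.23, 5.43, 5.39 and 5.36 and 6.02, 5.61, 5.54 and 5.43 in culture. Young cells thus lost a level that old cells did not have at the start. The other genes with a more positive change in old cells among the 12 with the smallest adjusted p were Rassf4 (2.50), Cgref1 (2.23), the folate enzyme Aldh1l2 (2.76), Slc6a2 (1.49), Camk2a (1.84), the actin-bundling gene Fscn1 (1.52), Kazald1 (1.50), Sec24a (1.22), the basement membrane collagen Col4a5 (1.43) and the noncoding gene Miat (1.52).

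In the other direction Igf2 fell by 4.22 in old and by 1.66 in young cells, a difference of -2.56 ± 0.28, adjusted p = 1.24e-04. It read 6.99, 7.26, 6.99 and 7.23 in young and 9.52, 9.71, 9.74 and 8.60 in old cells in vivo, and 5.16, 5.59, 5.70 and 5.37 and 5.29, 5.23, 5.14 and 5.01 in culture. Ldhb read 6.03, 6.24, 6.23 and 6.62 in young cells in vivo and 6.80, 6.79, 6.93 and 7.32 in young cultures, so that it was higher in culture in young cells and lower in old cells (difference -1.51 ± 0.20, adjusted p = 8.83e-04). The remaining genes with a more negative change in old cells were Scin, which severs actin filaments (-1.90), Ntng1 (-1.79), Tcf24 (-1.06), Plaat3 (-1.48), complement factor B, Cfb (-1.36), Gclm of glutathione synthesis (-0.83), Snrpb2 (-0.99), Exosc9 (-0.80), Snhg6 (-0.77) and Cd109 (-1.51). Without old in vivo replicate 1 the counts were 52 and 148 in place of 29 and 58. The count of 58 was 122 without young in vivo replicate 1, 28, 34 and 22 without young cultured replicates 1, 2 and 4, and 26 and 28 without old cultured replicates 2 and 4. Of the 87 genes, 42 were called in all 16 fits that left out 1 array.

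**Figure D5:**
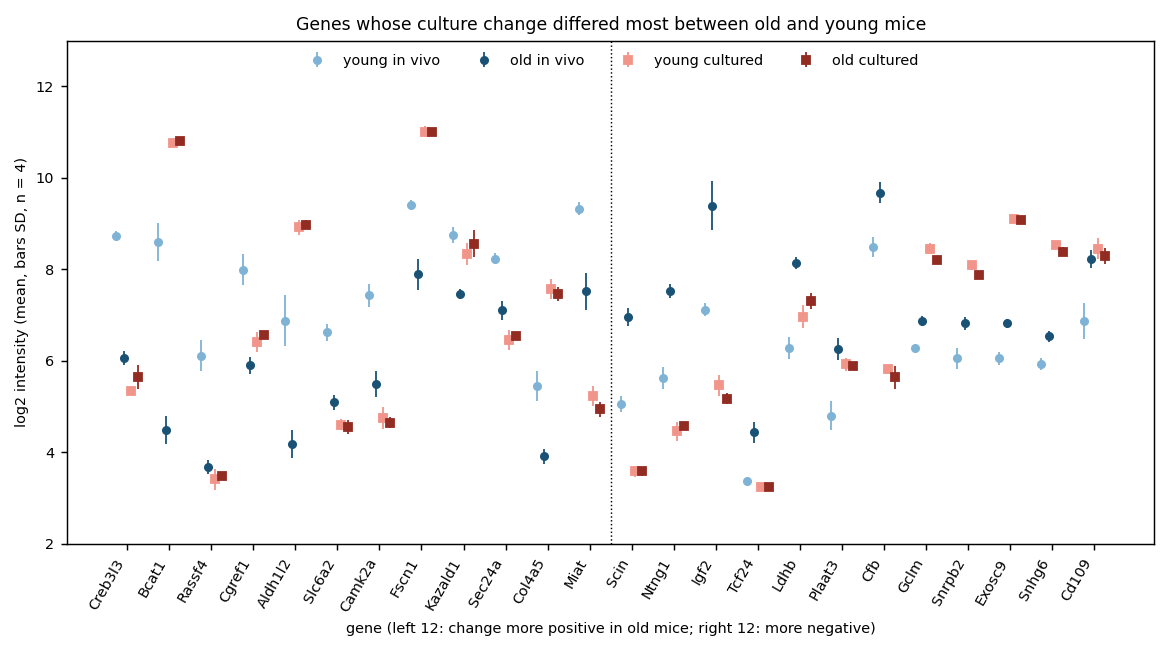
Mean log2 intensity with SD (bars, n = 4 arrays per group) of the 24 genes with the smallest adjusted p for a difference of the culture change between ages, 12 with a more positive change in old cells on the left and 12 with a more negative one on the right. Circles are in vivo and squares cultured, light for young and dark for old: the circles of the 2 ages lie apart and the squares lie close together, as for Bcat1 and Creb3l3.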

How the data were processed

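The deposited table holds log2 intensities of 45141 probe sets on 16 arrays. RMA and the package affy are named, without version, in the submitters' processing notes. The base of the logarithm is not given in the sources used here and was inferred from their range. RMA equalises the distribution of values between arrays, so changes are relative to the other genes. Each gene was represented by its probe set of highest mean over the 16 arrays, with names from the platform annotation and RefSeq (28689 of 28898 probe sets with 1 symbol matched by gene ID). Probe sets with several symbols (551) or none listed (15588) were left out.

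The 8 old arrays were fitted with limma 3.58.1 (lmFit, eBayes, R 4.3.3) without a block, since the labels do not say which arrays share a mouse or day. All tests are two-sided, and the steps were tested on simulated data. An interaction over 16 arrays compared the ages. The number of arrays limits the precision, and p-values measure only the spread between these arrays. Genes were named by rule: the 15 largest changes each way without overlap of the groups, up to 4 members of each list each way and its best known members, and 12 genes each way for age. Other genes were named after their values were seen. Members and lists were chosen with earlier results of these data known. List counts cover tested members only, and other listed genes are not analysed here.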

Additional observations from a re-analysis of the deposited data

Results flagged for a closer look

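Among the genes given sample by sample, 126 groups of 4 arrays were examined and 9 held a sample far from the other 3. Chance gives about 1 in 20 groups, and some of the genes had been picked for their spread. Old in vivo replicate 1 was far above the others for Krt5 (9.68), Tgtp1 (9.10) and Krt14 (7.11). It was below them by a smaller gap for Dlk1 (4.20 against 4.48 to 4.52). Old in vivo replicate 3 was above the others for Atf4 (10.47 against 10.02 to 10.07). Old cultured replicate 1 was far below the others for Lce1h (4.10) and above them for Tek (4.91), and old cultured replicate 2 was below them for Actb (12.67) and Kcnj8 (3.79).

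The culture change differed between old and young cells, by the interaction test in limma, for the 24 genes named in that comparison. The differences (old minus young, log2) were 4.15 for Bcat1, 2.97 for Creb3l3, 2.76 for Aldh1l2, 2.50 for Rassf4, 2.23 for Cgref1, 1.84 for Camk2a, 1.52 for Fscn1, 1.52 for Miat, 1.50 for Kazald1, 1.49 for Slc6a2, 1.43 for Col4a5 and 1.22 for Sec24a. In the other direction they were -2.56 for Igf2, -1.90 for Scin, -1.79 for Ntng1, -1.51 for Ldhb, -1.51 for Cd109, -1.48 for Plaat3, -1.36 for Cfb, -1.06 for Tcf24, -0.99 for Snrpb2, -0.83 for Gclm, -0.80 for Exosc9 and -0.77 for Snhg6.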

How the results depend on the processing

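No paired analysis was possible because the labels do not say which in vivo and cultured arrays share a mouse or a collection day. The 4340 genes higher and 4600 lower in culture became 1792 and 1197 with a 2-fold minimum, and 7015 genes were lower after scaling to the 75th percentile. Leaving out each array in turn gave 4025 to 4287 genes higher, 3897 to 4425 lower, 1670 to 1868 at least 2-fold higher and 1173 to 1225 at least 2-fold lower. The 29 genes with a more positive change in old cells became 53 with 75th percentile scaling and 52 with cyclic loess, and 21 to 52 without 1 array, the highest without old in vivo replicate 1. The 58 genes with a more negative change ranged from 22, without young cultured replicate 4, to 148, without old in vivo replicate 1. The cause of these shifts was not tested. Of 272 genes named by the rule, 252 kept their direction and call under every alternative run, 20 lost the call under at least 1, and 0 turned direction. Of the 24 genes named for age, 23 kept theirs, and Col4a5 lost its call with means over probe sets (0.65, adjusted p = 0.0777). Changes of genes near the control level may be lower than the true size.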
